A study of Rattus norvegicus with 6 samples.

Results

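The 29 genes described here encode enzymes that build cholesterol and its isoprenoid precursors, the sensors that set how strongly those enzymes are expressed, and proteins that take up, move and store cholesterol. They were picked by gene symbol, and 28 of the 29 had a row among the 23096 genes of the table. Fdps, which encodes farnesyl diphosphate synthase, had no row under that symbol and was not analysed here. The 28 genes comprised 16 enzymes of the route from acetoacetyl-CoA to cholesterol, the isoprenoid branch enzyme Ggps1, 4 sterol sensing and control genes, and 7 genes for uptake, lysosomal export, transfer and storage.

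RNA was sequenced from primary ventricular cardiomyocytes of Wistar rats, isolated at the prenatal stage E18.5. The cultures were exposed to 10 µM all-trans retinoic acid (ATRA), the vitamin A derivative that activates retinoic acid receptors, or to its solvent DMSO, called vehicle below, for 48 h. Each group held 3 libraries. Both groups shared 2 pre-platings of 1 h that lower the number of fibroblasts, laminin-coated dishes, and 24 h of culture in medium with 7% fetal bovine serum before treatment. Serum brings lipoproteins of its own, a source of cholesterol in both groups. The labels name no genetic change, the cells are a primary culture that can hold other cell types, and nothing in the labels ties the libraries to separate isolations. The p-values below therefore cover the differences among these 6 libraries, which may be technical.

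Cells make cholesterol from acetyl-CoA through mevalonate, isoprenoids, squalene and a series of sterols. The transcription factor SREBP2, encoded by Srebf2, sits in the endoplasmic reticulum membrane with its escort SCAP. When membrane sterols are low, SCAP carries SREBP2 to the Golgi, where proteases release the part that enters the nucleus and switches on most enzymes of the route together with the genes for lipoprotein uptake. When sterols are high, the INSIG proteins hold SCAP back. On promoters, SREBP2 commonly acts beside NF-Y, which binds the CCAAT box, and Sp1, which binds GC boxes.

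Promoter sequences are shown for 5 enzymes because most enzymes of the route moved together between libraries, as described below, and because these 5 span the range of CCAAT boxes found. RefSeq promoter windows of the rat build GRCr8, from 250 bases before to 50 bases after each gene start, were matched by symbol to 24 of the 29 genes, Fdps included. Sqle, Pmvk, Scarb1, Stard4 and Fdft1 were not matched. Each line gives the 200 bases before the gene start, 5′ to 3′ on the strand of the gene, with capitals marking CCAAT or its reverse complement ATTGG.
Mvk promoter, chr12:47819504-47819703, minus strand: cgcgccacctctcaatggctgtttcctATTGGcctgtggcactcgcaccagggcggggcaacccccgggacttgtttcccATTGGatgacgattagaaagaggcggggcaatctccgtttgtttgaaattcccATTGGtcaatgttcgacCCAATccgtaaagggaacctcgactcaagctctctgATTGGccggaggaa
Msmo1 promoter, chr16:29746913-29747112, plus strand: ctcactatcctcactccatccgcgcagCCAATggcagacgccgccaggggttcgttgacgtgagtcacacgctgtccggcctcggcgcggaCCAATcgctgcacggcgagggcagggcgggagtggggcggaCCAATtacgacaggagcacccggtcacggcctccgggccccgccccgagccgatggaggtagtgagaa
Idi1 promoter, chr17:66547525-66547724, minus strand: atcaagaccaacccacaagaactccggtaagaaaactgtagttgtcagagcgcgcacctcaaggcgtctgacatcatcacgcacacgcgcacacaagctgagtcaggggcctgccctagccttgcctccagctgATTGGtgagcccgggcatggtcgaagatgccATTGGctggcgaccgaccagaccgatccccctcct
Lss promoter, chr20:12118231-12118430, minus strand: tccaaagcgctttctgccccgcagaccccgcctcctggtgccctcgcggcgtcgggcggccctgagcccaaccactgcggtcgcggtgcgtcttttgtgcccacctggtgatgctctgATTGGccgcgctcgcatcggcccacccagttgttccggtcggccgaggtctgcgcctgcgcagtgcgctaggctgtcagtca
Cyp51 promoter, chr4:30991493-30991692, plus strand: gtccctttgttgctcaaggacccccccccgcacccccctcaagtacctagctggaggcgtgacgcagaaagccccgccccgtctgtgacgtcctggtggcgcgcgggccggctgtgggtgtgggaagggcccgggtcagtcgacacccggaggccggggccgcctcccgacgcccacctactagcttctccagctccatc

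Within the bases shown, Mvk held 5 CCAAT boxes, Msmo1 3, Idi1 2 and Lss 1, and Cyp51 held 0. The first bases of the 5 boxes of Mvk lay 173, 120, 67, 50 and 14 bases before the start, and those of Msmo1 173, 109 and 68. Over the whole windows and both strands, CCAAT was present in 19 of 24 windows (79.2%), compared with 37.5% of all 33469 windows and 36.8% of the 11116 windows of genes tested here. GGGCGG, the GC box, was likewise present in 19 of 24, against 33.1% of all windows and 61.2% of those of tested genes. The classical sterol regulatory element TCACNCCAC was present in 0 of 24 windows, in 1.12% of all windows and in 1.09% of those of tested genes. With shares that low, 0 of 24 cannot show a lack of the element, and variants of it were not searched. AGGTCA, a single recognition site of nuclear receptors such as the retinoic acid receptor, was present in 4 of 24 windows (16.7%), against 16.2% of all windows and 12.2% of those of tested genes. None of these motifs contains another, a match is only a run of letters, and the windows cover a small part of the regulatory sequence.

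After ATRA, 8 of the 28 genes were higher, 2 were lower and 18 did not pass the test, which was limma on log2(normalised count + 1), with p-values adjusted by Benjamini-Hochberg across the 13110 genes that entered the fit and a threshold of 0.05. Over all genes tested, 20.3% were called higher and 18.9% lower, so the share of called genes was no larger among the cholesterol genes (10 of 28) than in the background (39.3%). The median log2 fold change of the 28 genes was 0.25, beside 0.00 for all genes tested. The 8 higher genes were the enzymes Mvk, Pmvk and Sqle, the control genes Srebf2, Insig1 and Insig2, the lysosomal lipase gene Lipa and the sterol carrier gene Stard4. The 2 lower genes were Npc1, which exports cholesterol from lysosomes, and Osbpl3, a lipid transfer protein. The groups did not overlap for 14 of the 28 genes, 10 with ATRA higher and 4 with ATRA lower, where 53.8% of all genes tested did not overlap.

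Vehicle replicate 3 had lower values than any other library for 15 of the 16 synthesis enzymes and is therefore shown apart. Leaving it out gave 9 higher and 8 lower genes among the 28, with a median log2 fold change of 0.06, when 26.3% of all genes tested were higher and 23.7% lower (49.9% in either direction). Of the 10 genes called with all libraries, 9 were called without it as well. The 6 genes Pmvk, Insig2, Lipa, Npc1, Stard4 and Osbpl3 were called with all libraries and under each of the 16 alternative settings tried. Leaving out vehicle replicate 2, the highest vehicle library for most enzymes, gave 13 higher genes, when 16.6% of all genes tested were higher. With ATRA replicate 1, 2 or 3 left out, 5, 4 and 5 genes were higher, when the shares over all genes tested were 13.1%, 13.1% and 12.8%.

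**Figure D1:**
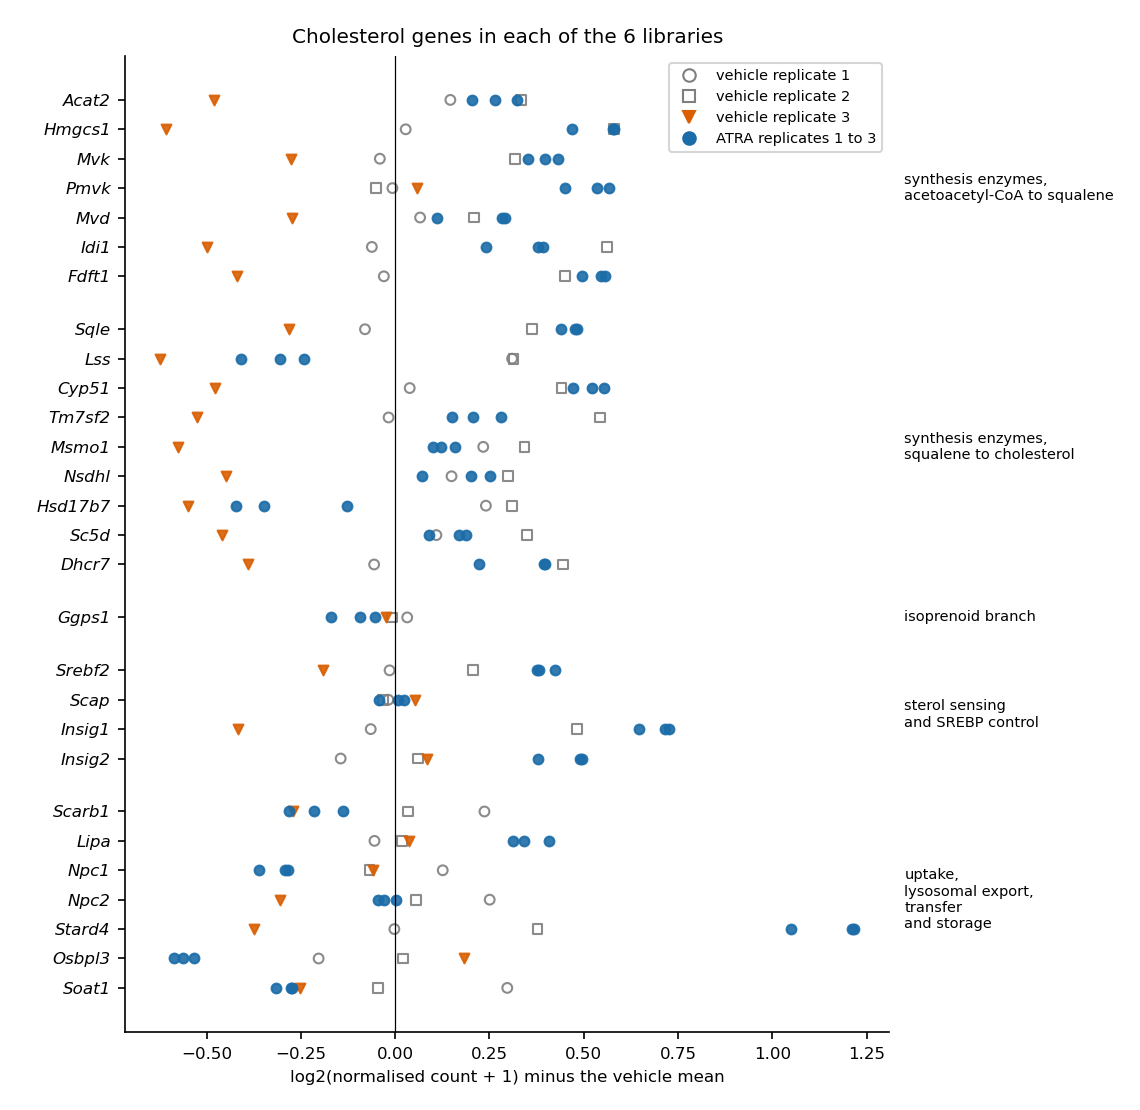
Difference of each cholesterol gene in each of the 6 libraries from its vehicle mean, in log2(normalised count + 1). Orange triangles, vehicle replicate 3, lie at the far left for 15 of the 16 enzymes of synthesis, while the 3 ATRA libraries, filled blue, lie close together.

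The early enzymes, from acetoacetyl-CoA to squalene, were mostly a little higher after ATRA than the mean of the vehicle libraries, and 2 of the 7 passed the test. Acat2 (ENSRNOG00000019189), the cytosolic thiolase that makes acetoacetyl-CoA, had 3563, 4056 and 2309 normalised counts in vehicle replicates 1 to 3 and 3870, 3706 and 4029 in ATRA replicates 1 to 3 (log2 fold change 0.26 ± 0.18, SE, adjusted p = 0.28). Hmgcs1 (ENSRNOG00000016552), which condenses it to HMG-CoA, had 6777, 9945 and 4359 normalised counts in vehicle replicates 1 to 3 and 9928, 9203 and 9936 in ATRA replicates 1 to 3. Vehicle replicate 2 stood at or above the ATRA libraries for both genes and vehicle replicate 3 far below them, and Hmgcs1 did not pass (log2 fold change 0.54 ± 0.25, SE, adjusted p = 0.12) unless vehicle replicate 2 was left out (0.83, adjusted p = 0.014).

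Mvk (ENSRNOG00000049604), mevalonate kinase, had 816, 1046 and 693 normalised counts in vehicle replicates 1 to 3 and 1105, 1072 and 1133 in ATRA replicates 1 to 3. All ATRA libraries were above all vehicle libraries, and Mvk was called higher at the edge of the threshold (log2 fold change 0.39 ± 0.13, SE, adjusted p = 0.049). That call was lost under 12 of the 16 alternatives, among them without vehicle replicate 1 (adjusted p = 0.088), without vehicle replicate 3 (0.26 ± 0.10, adjusted p = 0.056) and without ATRA replicate 1, 2 or 3 (adjusted p = 0.13, 0.11 and 0.14). Pmvk (ENSRNOG00000020696), phosphomevalonate kinase, had 943, 915 and 986 normalised counts in vehicle replicates 1 to 3 and 1405, 1294 and 1375 in ATRA replicates 1 to 3. Its vehicle libraries lay the closest together of the 16 enzymes from acetoacetyl-CoA to cholesterol, and it rose 1.43-fold, from 948 ± 36 to 1358 ± 57.3 normalised counts (mean ± SD, n = 3; log2 fold change 0.52 ± 0.06, SE, adjusted p = 0.00053). Its vehicle replicate 3 was the highest of the vehicle libraries.

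Mvd (ENSRNOG00000013376), which decarboxylates mevalonate diphosphate to isopentenyl diphosphate, had 1331, 1470 and 1050 normalised counts in vehicle replicates 1 to 3 and 1555, 1372 and 1547 in ATRA replicates 1 to 3 (log2 fold change 0.23 ± 0.12, SE, adjusted p = 0.17). Idi1 (ENSRNOG00000016690), the isomerase of isopentenyl diphosphate, had 2780, 4280 and 2053 normalised counts in vehicle replicates 1 to 3 and 3804, 3430 and 3774 in ATRA replicates 1 to 3. Its vehicle libraries spanned a 2.08-fold range around the ATRA values, and Idi1 did not pass (log2 fold change 0.34 ± 0.22, SE, adjusted p = 0.27), except without vehicle replicate 2 (0.62, adjusted p = 0.014). Fdft1 (ENSRNOG00000021314), squalene synthase, had 3021, 4214 and 2306 normalised counts in vehicle replicates 1 to 3 and 4535, 4346 and 4502 in ATRA replicates 1 to 3. Its groups did not overlap, and it stood just outside the threshold (log2 fold change 0.53 ± 0.18, SE, adjusted p = 0.051), passing without vehicle replicate 3 (0.32 ± 0.11, adjusted p = 0.045) and without vehicle replicate 2 (0.76, adjusted p = 0.0042).

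The later enzymes, from squalene to cholesterol, showed the split between libraries most plainly, with vehicle replicate 3 lowest and vehicle replicate 2 highest of the vehicle libraries for each of the 9. Only Sqle passed the test. Sqle (ENSRNOG00000009550), squalene epoxidase, a rate-limiting step after mevalonate, had 5560, 7559 and 4832 normalised counts in vehicle replicates 1 to 3 and 8209, 7975 and 8178 in ATRA replicates 1 to 3. The ATRA libraries were above all vehicle libraries, and Sqle was 1.38-fold higher (log2 fold change 0.47 ± 0.14, SE, adjusted p = 0.033). It was also called without vehicle replicate 3 (0.32 ± 0.11, adjusted p = 0.032), but not without vehicle replicate 1 (adjusted p = 0.066) or without ATRA replicate 1, 2 or 3 (adjusted p = 0.1, 0.086 and 0.098). Without those ATRA libraries its log2 fold change stayed at 0.458, 0.479 and 0.461. Cyp51 (ENSRNOG00000007234), lanosterol demethylase, had 10983, 14516 and 7672 normalised counts in vehicle replicates 1 to 3 and 15346, 14838 and 15685 in ATRA replicates 1 to 3. Vehicle replicate 2 was close below the ATRA libraries and vehicle replicate 3 was the lowest library (log2 fold change 0.52 ± 0.19, SE, adjusted p = 0.069). Cyp51 passed without vehicle replicate 3 (0.28 ± 0.10, adjusted p = 0.047) and without vehicle replicate 2 (0.74, adjusted p = 0.011).

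Lss, Hsd17b7 and Msmo1 did not pass with all libraries and were called lower after ATRA when vehicle replicate 3 was left out. Lss (ENSRNOG00000054549), lanosterol synthase, which closes the sterol rings, had 1554, 1558 and 813 normalised counts in vehicle replicates 1 to 3 and 944, 1014 and 1059 in ATRA replicates 1 to 3. The ATRA libraries lay between vehicle replicate 3 and the other vehicle libraries, so that Lss did not pass with all libraries (log2 fold change -0.32 ± 0.23, SE, adjusted p = 0.3) and was lower after ATRA without vehicle replicate 3 (-0.63 ± 0.06, adjusted p = 7.2e-05) or with array weights (-0.47, adjusted p = 0.019), which were lowest for vehicle replicates 3 and 1 (0.294 and 0.391, beside 1.07 for vehicle replicate 2). Hsd17b7 (ENSRNOG00000002826), a keto-reductase of sterol demethylation, had 452, 474 and 261 normalised counts in vehicle replicates 1 to 3 and 350, 285 and 300 in ATRA replicates 1 to 3. It showed the same pattern (log2 fold change -0.30 ± 0.22, SE, adjusted p = 0.31), with -0.57 ± 0.10, adjusted p = 0.002 without vehicle replicate 3 and adjusted p = 0.038 with array weights. Msmo1 (ENSRNOG00000032297), the methylsterol oxidase, had 4436, 4785 and 2531 normalised counts in vehicle replicates 1 to 3 and 4046, 4103 and 4209 in ATRA replicates 1 to 3. Its fold change turned from positive (log2 fold change 0.13 ± 0.21, SE, adjusted p = 0.66) to negative without vehicle replicate 3 (-0.16 ± 0.05, adjusted p = 0.024).

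The other 4 later enzymes did not pass with all libraries or without vehicle replicate 3. Tm7sf2 (ENSRNOG00000020989), a sterol reductase, had 625, 923 and 439 normalised counts in vehicle replicates 1 to 3 and 703, 730 and 769 in ATRA replicates 1 to 3 (log2 fold change 0.21 ± 0.23, SE, adjusted p = 0.49). Nsdhl (ENSRNOG00000057814), a sterol dehydrogenase, had 1424, 1579 and 941 normalised counts in vehicle replicates 1 to 3 and 1528, 1348 and 1474 in ATRA replicates 1 to 3 (log2 fold change 0.17 ± 0.17, SE, adjusted p = 0.46). For both genes, as for Sc5d, the fold change turned negative without vehicle replicate 3, to -0.05 for Tm7sf2, -0.05 for Nsdhl and -0.08 for Sc5d. Sc5d (ENSRNOG00000065944), the sterol desaturase, had 1735, 2050 and 1170 normalised counts in vehicle replicates 1 to 3 and 1711, 1831 and 1808 in ATRA replicates 1 to 3 (log2 fold change 0.15 ± 0.18, SE, adjusted p = 0.54). Dhcr7 (ENSRNOG00000020776), which reduces 7-dehydrocholesterol to cholesterol, had 642, 909 and 509 normalised counts in vehicle replicates 1 to 3 and 779, 879 and 877 in ATRA replicates 1 to 3. Dhcr7 did not pass (log2 fold change 0.34 ± 0.19, SE, adjusted p = 0.18) except without vehicle replicate 2 (0.56, adjusted p = 0.015). Ggps1 (ENSRNOG00000016767), which makes geranylgeranyl diphosphate and so leads away from cholesterol, had 458, 445 and 440 normalised counts in vehicle replicates 1 to 3 and 398, 420 and 431 in ATRA replicates 1 to 3. Its vehicle libraries spanned only a 1.04-fold range, all above the ATRA libraries, and the difference did not pass (log2 fold change -0.11 ± 0.07, SE, adjusted p = 0.29).

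Vehicle replicate 3 was set apart because it sat low for these genes, so the counts that follow describe that library and test nothing. Across the 16 enzymes, vehicle replicate 3 was the lowest of the 6 libraries for 15, where it was the lowest for 16.3% of all genes tested. Its value lay a median of -0.70 on the log2 scale from the mean of vehicle replicates 1 and 2, beside 0.01 for all genes tested. For 15 of the 16, the vehicle libraries came in one order, with replicate 3 lowest and replicate 2 highest, an order seen in 12.2% of all genes tested. Pmvk was the exception in both counts. Lss and Hmgcs1 stood lowest in vehicle replicate 3, at 52.3% and 52.1% of the mean of vehicle replicates 1 and 2, and Mvd and Mvk least so, at 75.0% and 74.4%, Pmvk aside. The ATRA libraries lay within the range of the vehicle libraries for 10 of the 16 enzymes, as they did for 2043 of the 13110 genes tested. Vehicle replicate 2 was above every ATRA library for 10 of the 16, and for 40.7% of all genes tested. The median SD of the enzymes across libraries was 0.43 on the log2 scale in vehicle and 0.06 in ATRA, beside 0.14 and 0.07 for all genes tested.

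Most fibroblast and endothelial markers were lower in vehicle replicate 3 than the mean of the other vehicle libraries, whereas the vehicle macrophage sum was highest there. In that library 12 of 13 fibroblast markers were below the mean of vehicle replicates 1 and 2, and their summed level was 837 FPKM, when the vehicle libraries ranged from 837 to 1865 FPKM. In the ATRA libraries the fibroblast sum was 793 to 838 FPKM, close to that of vehicle replicate 3, and Col1a1 and Col1a2 carried most of it. Single markers differed more, with Postn at 25.9 FPKM in vehicle replicate 3 and 3.93 ± 0.31 FPKM after ATRA, and Col3a1 at 46.8 and 90.9 ± 5.36 FPKM. Of the 12 tested, Dcn and Fbln1 were called higher after ATRA, and 4 were called lower, Col1a1, Postn, Thy1 and Mmp2. Without vehicle replicate 3, 2 were higher and 8 lower. Over all genes tested, 20.3% were higher and 18.9% lower, or 26.3% and 23.7% without that library. All 16 enzymes were higher in every ATRA library than in vehicle replicate 3, an order seen in 40.2% of all genes tested. That library was set apart for its low values, so this count tests nothing. Summed cardiomyocyte markers, 12 of 13 with a row, were 9416 to 12713 FPKM in vehicle, highest in replicate 3, and 16294 to 16488 FPKM after ATRA. Of these 12, 5 were called higher, 6 were not called and Myh7 was called lower (1413 ± 313 to 901 ± 47.6 FPKM). Without vehicle replicate 3, 11 were called higher and Myh7 lower. The part of cell composition in the enzyme values was not tested, and in bulk RNA fewer cells of a type and less RNA per cell cannot be told apart. Smooth muscle and pericyte markers summed to 64.5 to 136 FPKM in vehicle, lowest in replicate 3, and 174 to 190 FPKM after ATRA. Of the 7 tested, 3 were called higher, among them Abcc9 (6.73 ± 1.59 to 73.6 ± 1.10 FPKM) and Cnn1 (49.7 ± 29.6 to 93.5 ± 7.18 FPKM). These 2 carried most of that sum and its rise. Another 3 were called lower, Pdgfrb (25.7 ± 11.3 to 9.44 ± 0.68 FPKM), Cspg4 and Notch3, and Kcnj8 was not called (0.15 ± 0.06 and 0.14 ± 0.02 FPKM). The sum is therefore no reading of that cell type. Endothelial markers summed to 3.92 to 8.07 FPKM in vehicle and 7.35 to 7.91 FPKM after ATRA. Kdr was called higher (1.40 ± 0.12 to 5.10 ± 0.36 FPKM), with Tek and Egfl7 called lower. Another 3 of the 6 tested were not called, among them Cdh5 with a log2 fold change of -0.003. Without vehicle replicate 3, 1 was higher and 5 were lower. The markers named singly here were picked after their values were seen. Macrophage markers summed to 1.30 to 1.83 FPKM in vehicle and 2.53 to 3.52 FPKM after ATRA, with 5 of 9 below 10 normalised counts in every library and Cd163 at 0 in all 6. Csf1r carried most of that rise (0.75 ± 0.14 to 2.36 ± 0.40 FPKM) and was the only 1 of 3 tested that was called. Cd68 (0.53 ± 0.11 to 0.27 ± 0.12 FPKM) and Lyz2 (0.20 ± 0.06 and 0.19 ± 0.09 FPKM) did not rise.

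**Figure D2:**
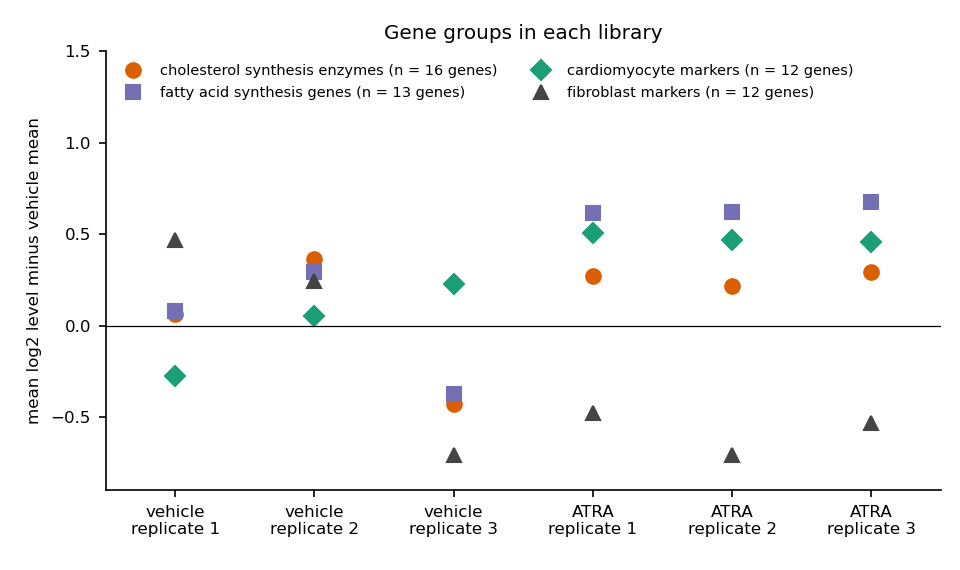
Mean log2 level of gene groups in each library, as the difference from the vehicle mean. The cholesterol enzymes stand at 0.06, 0.36 and -0.43 in vehicle replicates 1 to 3 and at 0.27, 0.22 and 0.29 in ATRA replicates 1 to 3, whereas fibroblast markers are low in vehicle replicate 3 (-0.71) and in all ATRA libraries (-0.48 to -0.71).

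Of the 4 genes that sense sterols and control SREBP2, 3 were called higher after ATRA, where 20.3% of all genes tested were. The groups did not overlap for these 3, as they did not for 5 of the 16 enzymes and 53.8% of all genes tested. Srebf2 (ENSRNOG00000007400), which encodes SREBP2 itself, had 3471, 4043 and 3073 normalised counts in vehicle replicates 1 to 3 and 4552, 4700 and 4566 in ATRA replicates 1 to 3. All ATRA libraries were above all vehicle libraries, and Srebf2 rose 1.31-fold from 3529 ± 488 to 4606 ± 81.9 normalised counts (mean ± SD, n = 3; log2 fold change 0.39 ± 0.09, SE, adjusted p = 0.012), a call lost without ATRA replicate 2 (adjusted p = 0.051). Insig1 (ENSRNOG00000006859), an INSIG gene that is itself a target of SREBP2, had 3772, 5515 and 2952 normalised counts in vehicle replicates 1 to 3 and 6524, 6176 and 6477 in ATRA replicates 1 to 3. The vehicle libraries differed 1.87-fold among themselves, again with replicate 3 lowest and replicate 2 highest, and all lay below ATRA (log2 fold change 0.70 ± 0.19, SE, adjusted p = 0.022). The rise of Insig1 was called without vehicle replicate 3 (0.49 ± 0.13, adjusted p = 0.013) and not without ATRA replicate 1, 2 or 3 (adjusted p = 0.076, 0.063 and 0.074). Without those ATRA libraries its log2 fold change stayed at 0.681, 0.72 and 0.686.

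Insig2 (ENSRNOG00000002478), the second INSIG gene, whose expression depends less on sterols, had 382, 441 and 448 normalised counts in vehicle replicates 1 to 3 and 550, 597 and 594 in ATRA replicates 1 to 3. It rose 1.37-fold from 424 ± 36.1 to 580 ± 26.4 normalised counts (mean ± SD, n = 3; log2 fold change 0.45 ± 0.09, SE, adjusted p = 0.0051), and its vehicle replicate 3 was not low but the highest of the vehicle libraries. Scap (ENSRNOG00000020853), the escort of SREBP2, had 2592, 2565 and 2720 normalised counts in vehicle replicates 1 to 3 and 2666, 2637 and 2549 in ATRA replicates 1 to 3. The groups overlapped and the difference was close to 0 (log2 fold change -0.00 ± 0.05, SE, adjusted p = 0.95), with a sign that depended on the libraries used.

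**Figure D3:**
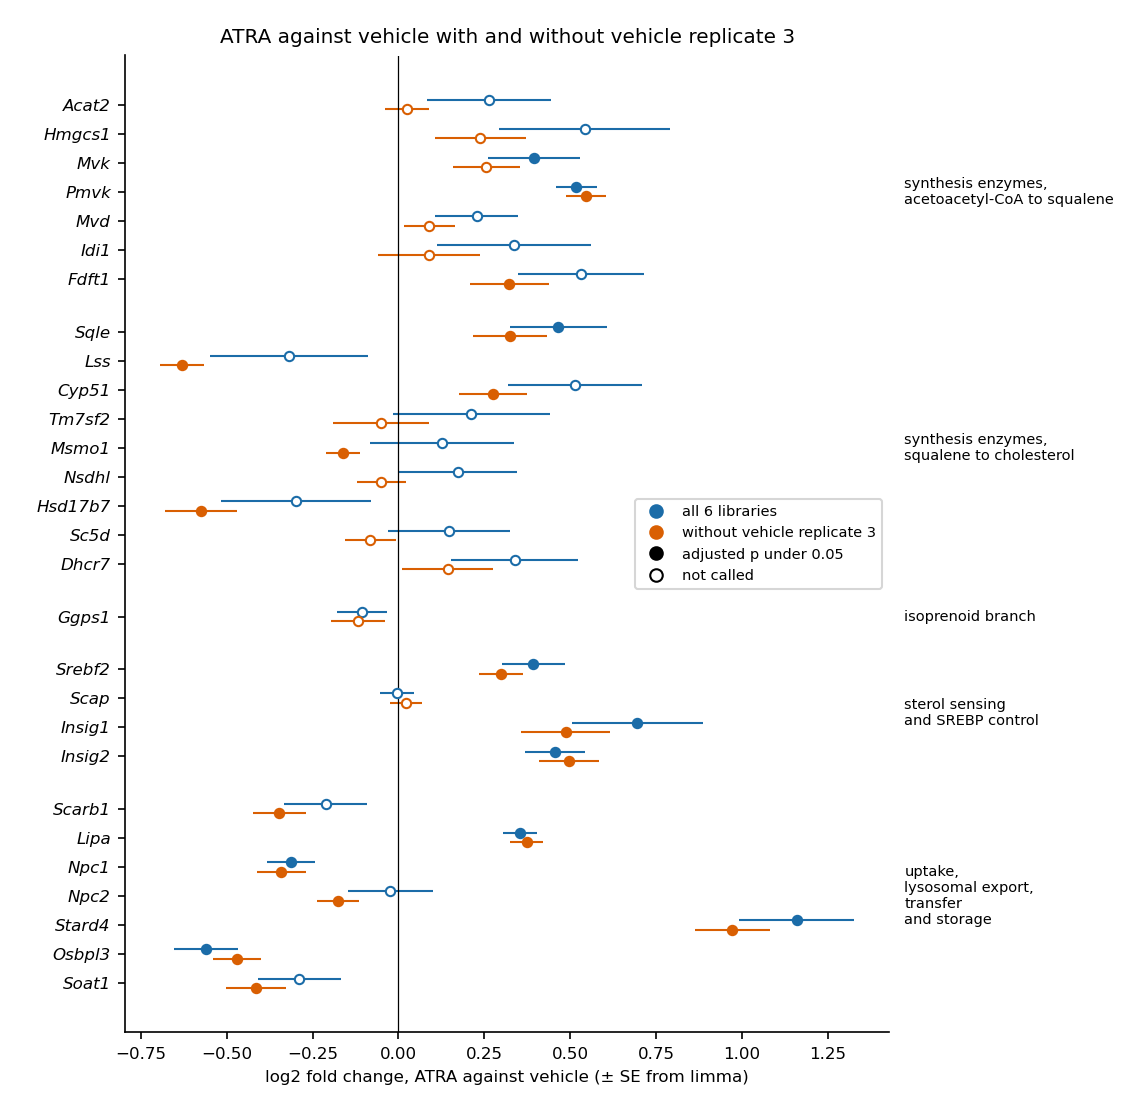
Log2 fold change of each cholesterol gene, ATRA against vehicle, with the SE from limma, for all 6 libraries (blue) and without vehicle replicate 3 (orange), filled where the adjusted p is under 0.05. Most enzymes shift to lower values without vehicle replicate 3, from 0.54 to 0.24 for Hmgcs1 and from -0.32 to -0.63 for Lss, while Pmvk, Insig2, Lipa and Npc1 move by less than 0.1.

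Among the genes for uptake, lysosomal export, transfer and storage, 2 of 7 rose and 2 fell, and with all libraries these held the largest changes of the 28 genes in both directions. Without vehicle replicate 3 the largest decrease was that of Lss (-0.63, beside -0.47 for Osbpl3). Stard4 (ENSRNOG00000020468), a soluble sterol carrier and a known target of SREBP2, had 526, 684 and 406 normalised counts in vehicle replicates 1 to 3 and 1226, 1091 and 1221 in ATRA replicates 1 to 3. It rose 2.23-fold from 538 ± 140 to 1179 ± 76.4 normalised counts (mean ± SD, n = 3; log2 fold change 1.16 ± 0.17, SE, adjusted p = 0.0014), with vehicle replicate 3 again the lowest library, and without it the value was 0.97 ± 0.11, adjusted p = 0.00014. Lipa (ENSRNOG00000019077), the lysosomal acid lipase that frees cholesterol from lipoprotein esters, had 3989, 4194 and 4254 normalised counts in vehicle replicates 1 to 3 and 5256, 5496 and 5148 in ATRA replicates 1 to 3. It rose 1.28-fold with groups well apart (log2 fold change 0.35 ± 0.05, SE, adjusted p = 0.0013).

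Npc1 (ENSRNOG00000012016), the membrane protein that passes cholesterol out of the lysosome, had 1255, 1097 and 1105 normalised counts in vehicle replicates 1 to 3 and 896, 938 and 944 in ATRA replicates 1 to 3. It fell 1.24-fold from 1152 ± 89.1 to 926 ± 26.5 normalised counts (mean ± SD, n = 3; log2 fold change -0.31 ± 0.07, SE, adjusted p = 0.0098), so that the lipase and the exporter changed in opposite directions. Npc2 (ENSRNOG00000012062), the soluble partner that hands cholesterol to Npc1, had 6075, 5304 and 4132 normalised counts in vehicle replicates 1 to 3 and 5114, 4951 and 5006 in ATRA replicates 1 to 3. Its vehicle libraries ranged on both sides of the ATRA libraries (log2 fold change -0.02 ± 0.12, SE, adjusted p = 0.9), and it was lower after ATRA without vehicle replicate 3 (-0.18 ± 0.06, adjusted p = 0.038). Osbpl3 (ENSRNOG00000010011), an oxysterol-binding protein relative that works at membrane contact sites, had 1644, 1920 and 2149 normalised counts in vehicle replicates 1 to 3 and 1308, 1261 and 1281 in ATRA replicates 1 to 3. It fell 1.47-fold (log2 fold change -0.56 ± 0.09, SE, adjusted p = 0.0026), and in contrast to the enzymes its vehicle replicate 3 was the highest of all libraries.

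Soat1 (ENSRNOG00000004111), which esterifies cholesterol for storage, had 4588, 3617 and 3137 normalised counts in vehicle replicates 1 to 3 and 2998, 3089 and 3083 in ATRA replicates 1 to 3. All vehicle libraries were above all ATRA libraries, vehicle replicate 3 only just, and Soat1 did not pass with all libraries (log2 fold change -0.29 ± 0.12, SE, adjusted p = 0.095). It was called lower without vehicle replicate 3 (-0.41 ± 0.09, adjusted p = 0.0043), as it was by array weights (adjusted p = 0.011) and by library size alone (adjusted p = 0.035). Scarb1 (ENSRNOG00000000981), the receptor for high-density lipoprotein, had 1263, 1097 and 888 normalised counts in vehicle replicates 1 to 3 and 974, 923 and 881 in ATRA replicates 1 to 3. Vehicle replicate 3 fell among the ATRA libraries, and Scarb1 did not pass with all libraries (log2 fold change -0.21 ± 0.12, SE, adjusted p = 0.2). It passed as lower without vehicle replicate 3 (-0.35 ± 0.08, adjusted p = 0.0055). Array weights also gave a call (adjusted p = 0.041).

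Per transcript length, in FPKM, the levels of the 28 genes spread over a wide range. Cyp51 had the highest mean in both groups, at 122 ± 37.8 FPKM in vehicle and 169 ± 4.70 FPKM after ATRA (SD, n = 3), followed by Npc2 at 116 ± 21.9 and 112 ± 1.86 FPKM. In vehicle these means did not differ beyond their spread, and Npc2 was above Cyp51 in replicates 1 and 3. In vehicle these were followed by Msmo1 (78.7 ± 24.4), Sqle (73.6 ± 17.4) and Hmgcs1 (65.7 ± 26.2 FPKM), which did not differ beyond their spread. After ATRA, Sqle (99.9 ± 1.56 FPKM) stood above Hmgcs1 (90.6 ± 3.94), and Hmgcs1 above Msmo1 (82.8 ± 1.66 FPKM) by more than their spread. Insig1 (82.4 ± 2.44 FPKM after ATRA) did not differ from Msmo1 beyond their spread. The lowest were Ggps1, at 4.86 ± 0.10 and 4.52 ± 0.19 FPKM, Npc1, at 7.35 ± 0.57 and 5.91 ± 0.17 FPKM, and in vehicle Stard4, at 6.91 ± 1.79 FPKM, which after ATRA stood at 15.1 ± 0.98 FPKM. Among the enzymes from acetoacetyl-CoA to cholesterol the lowest were Lss, at 7.73 ± 2.53 and 5.94 ± 0.34 FPKM, and Hsd17b7, at 7.78 ± 2.30 and 6.13 ± 0.67 FPKM, which did not differ beyond their spread.

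**Figure D4:**
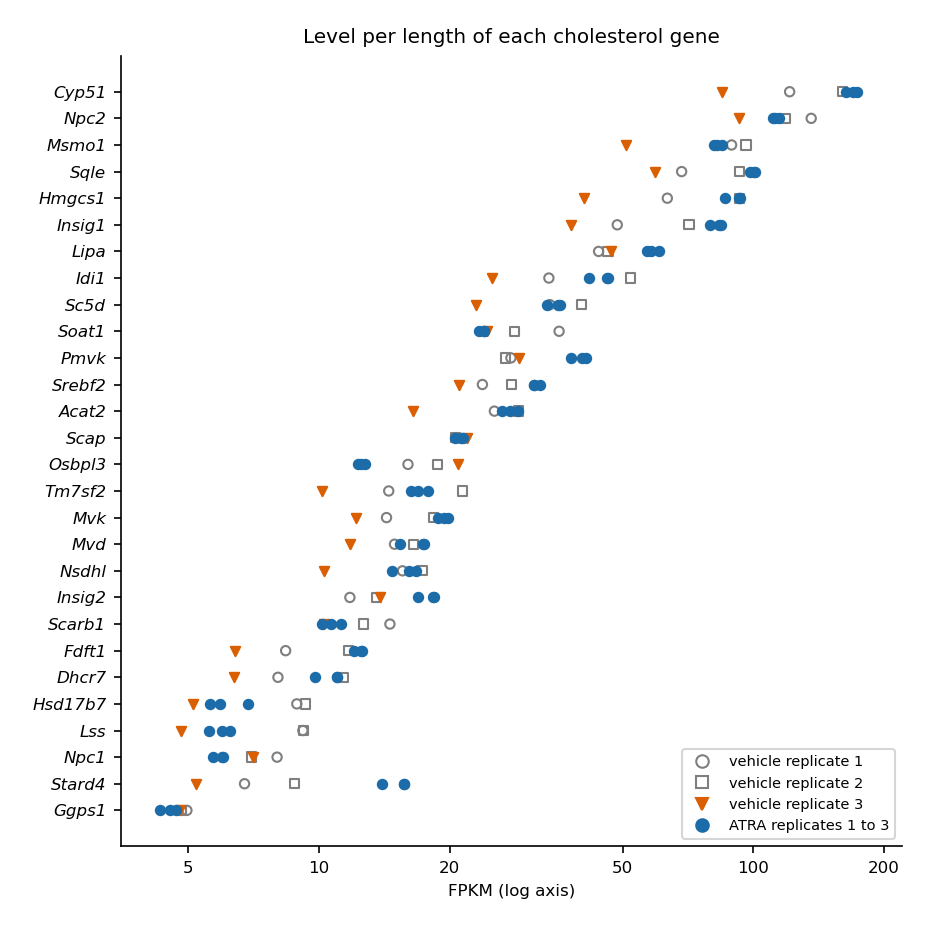
FPKM of each cholesterol gene in each library on a log axis, ordered by level. The genes run from Ggps1, at 4.32 to 4.97 FPKM, to Cyp51, at 84.7 to 173 FPKM, and ATRA libraries (filled blue) cluster more tightly than vehicle libraries for most genes.

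Other genes of the same and neighbouring pathways were taken from 7 lists of 84 entries, 77 of them tested, and 29 were called higher and 10 lower. The counts per list below stand beside 20.3% higher and 18.9% lower over all genes tested, and nothing is called particular to a list. The number called lower was 5, 6 and 5 without ATRA replicate 1, 2 and 3. Over all genes tested, the number called lower fell from 2483 to 1636, 1645 and 1641 in these settings. The number called higher fell from 2667 to 1702, 1698 and 1665, so calls lost without an ATRA library were common across the table. Of the 5 further synthesis enzymes tested, 2 were higher and 0 lower, or 2 higher and 3 lower without vehicle replicate 3. Acat1, the mitochondrial thiolase, rose (log2 fold change 0.40 ± 0.09, SE, adjusted p = 0.0088). Of the 12 genes for SREBP processing and sterol-regulated degradation, 4 were higher and 2 lower, or 2 higher without ATRA replicate 1, 2 or 3. Srebf1, the gene of the sister factor SREBP1, had 930, 1093 and 635 normalised counts in vehicle and 3238, 3140 and 3429 after ATRA (1.92 ± 0.17, adjusted p = 0.00016). The ubiquitin ligase genes Rnf145 (0.57 ± 0.05, adjusted p = 0.00014) and Rnf139 (0.30 ± 0.07, adjusted p = 0.014) rose, whereas Erlin1 (-0.55 ± 0.12, adjusted p = 0.0076), of the degradation machinery in the endoplasmic reticulum, and Pgrmc1 (-0.43 ± 0.08, adjusted p = 0.005), a haem-binding membrane protein, fell. Without ATRA replicate 1, 2 or 3, Rnf139 was not called (adjusted p = 0.056, 0.06 and 0.052), while its log2 fold change stayed at 0.303, 0.296 and 0.312.

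Of 9 lipoprotein receptor genes and their regulators, 1 was higher and 4 lower, or 2 lower without ATRA replicate 1, 2 or 3. Lrp1, an endocytic receptor of lipoprotein remnants, had 9885, 6949 and 3916 normalised counts in vehicle and 3270, 3262 and 3355 after ATRA (-0.97 ± 0.28, adjusted p = 0.026). Among the vehicle libraries it was lowest in replicate 3, as the fibroblast sum was. Its call was lost without vehicle replicate 2 (adjusted p = 0.084) and without ATRA replicate 1, 2 or 3 (adjusted p = 0.082, 0.08 and 0.077). Without those ATRA libraries its log2 fold change stayed at -0.964, -0.963 and -0.983. Lrp8 fell (-0.48 ± 0.09, adjusted p = 0.0042), and Snx17, a sorting nexin that returns Lrp1 to the membrane, rose (0.26 ± 0.05, adjusted p = 0.0053). Mylip, a ligase that marks lipoprotein receptors for degradation, had 92.9, 73.8 and 55.5 normalised counts in vehicle and 37.2, 49.5 and 42.3 after ATRA and fell (-0.75 ± 0.23, adjusted p = 0.033), a call lost without vehicle replicate 1 or 2 (adjusted p = 0.087 and 0.088) and without ATRA replicate 1, 2 or 3 (adjusted p = 0.11, 0.056 and 0.095).

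Of 19 sterol transfer and storage genes, 9 were higher and 2 lower, or 1 lower without ATRA replicate 1, 2 or 3. Osbpl6 (0.76 ± 0.10, adjusted p = 0.00087) and Osbpl8 (0.40 ± 0.08, adjusted p = 0.0049), relatives of Osbpl3, rose where Osbpl3 fell. Soat2, the second esterifying enzyme, had 12.6, 7.81 and 16.3 normalised counts in vehicle and 28.4, 24.3 and 30.4 after ATRA (1.16 ± 0.32, adjusted p = 0.021), and was not called without vehicle replicate 2 (adjusted p = 0.054) or ATRA replicate 1, 2 or 3 (adjusted p = 0.073, 0.052 and 0.08). Stard5, a relative of Stard4, fell (-0.78 ± 0.10, adjusted p = 0.00069), as did Gramd1a (-0.29 ± 0.07, adjusted p = 0.014), a carrier of cholesterol from the cell membrane to the endoplasmic reticulum, which was not called without ATRA replicate 1, 2 or 3 (adjusted p = 0.055, 0.053 and 0.055). Of 11 genes that use isoprenoids, 2 were higher and 2 lower, or 1 higher and 0 or 1 lower without an ATRA library. Pdss2, of ubiquinone side chain synthesis, rose (0.39 ± 0.08, adjusted p = 0.0067). Dhdds (0.27 ± 0.08, adjusted p = 0.025), Pggt1b (-0.29 ± 0.08, adjusted p = 0.021) and Rabggtb (-0.18 ± 0.05, adjusted p = 0.019) passed as well. Dhdds, of dolichol synthesis, was not called without vehicle replicate 1 or 2 (adjusted p = 0.05 and 0.085) or ATRA replicate 1, 2 or 3 (adjusted p = 0.055, 0.072 and 0.11). The prenyltransferase subunit genes were not called either without ATRA replicate 1 or 3, at adjusted p = 0.088 and 0.066 for Pggt1b and 0.061 and 0.082 for Rabggtb, which was also lost without ATRA replicate 2 (adjusted p = 0.08).

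Fatty acid synthesis genes, which answer mainly to SREBP1, were higher for 6 and lower for 0 of 13 tested. Scd2, a stearoyl-CoA desaturase, had 18626, 28869 and 7243 normalised counts in vehicle and 75508, 72431 and 76986 after ATRA (2.25 ± 0.42, adjusted p = 0.0045), and its close copy Scd rose by 1.77 ± 0.49 (adjusted p = 0.023), or 1.11 without vehicle replicate 3, and was not called without ATRA replicate 1, 2 or 3 (adjusted p = 0.076, 0.059 and 0.078). Reads shared between these copies may have been split, so their separate values are uncertain. Acaca, acetyl-CoA carboxylase, rose by 1.53 ± 0.11 (adjusted p = 5.4e-05). The list carried the same order of vehicle libraries as the cholesterol enzymes, with mean log2 differences of 0.08, 0.29 and -0.37 from the vehicle mean. Of 8 oxysterol and efflux genes 5 were higher and 0 lower, or 3 higher without ATRA replicate 1, 2 or 3. Abca1 (2.63 ± 0.18, adjusted p = 4.1e-05) and Abcg1 (2.22 ± 0.10, adjusted p = 4.5e-06), which pump cholesterol out of the cell, rose. Cyp7b1, an oxysterol hydroxylase, had 5.81, 16.5 and 13.1 normalised counts in vehicle and 28.4, 26.3 and 39 after ATRA (1.42 ± 0.39, adjusted p = 0.022) and was not called without ATRA replicate 1, 2 or 3 (adjusted p = 0.064, 0.054 and 0.091).

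**Figure D5:**
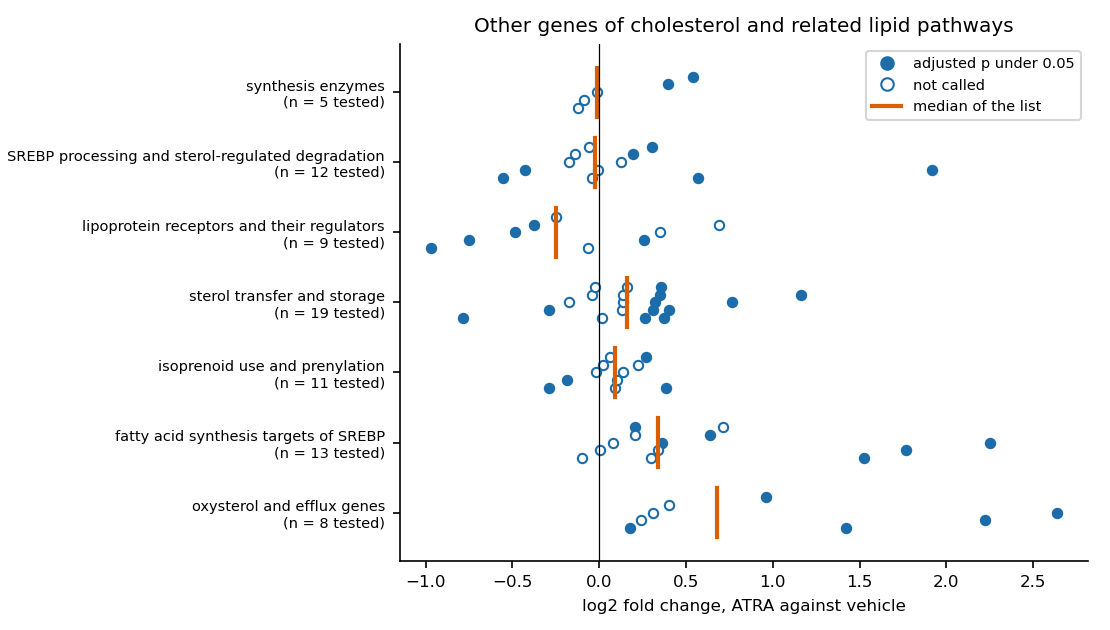
Log2 fold change of each tested gene in the 7 further lists, filled where the adjusted p is under 0.05, with the median of each list in orange. The medians run from -0.25 for the lipoprotein receptor genes to 0.68 for the oxysterol and efflux genes, beside 0.25 for the 28 cholesterol genes.

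The 6 libraries held 25434878 to 32052035 gene-assigned reads, the fewest in vehicle replicate 3, and every one of the 28 genes had at least 261 normalised counts in each library. The labels name no batch. In the authors' deposited table, 10 of the 28 genes were higher and 2 lower at an adjusted p under 0.05, where 34% of all genes with an adjusted p passed. The 2 genes added to those called here were Fdft1 (log2 fold change 0.49, adjusted p = 0.021) and Cyp51 (0.47, adjusted p = 0.031).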

How the data were processed

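RNA was measured in 3 vehicle and 3 ATRA libraries of cultured rat cardiomyocytes. Per the submitters' processing notes, the tools were STAR 2.7.3a, Trim Galore 0.6.4, DESeq2 1.32.0 and HTSeq 0.11.2, and the rat build was mRatBN7.2. Strand setting, annotation release and the handling of multi-mapping reads: not given in the sources used here. Genes that overlap others or have close copies are therefore uncertain.

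Per the file headers, the deposited table holds for each library a normalised count signal, which the authors made by dividing reads by a size factor. FPKM values by the authors are given too, proportional to the normalised count of each gene (relative spread 4.5e-14) and used only to compare levels between genes. The deposited comparison by the authors lists an adjusted p-value, a p-value, a test score, and the log2 fold change with an SE. The normalised counts were whole multiples of their smallest value for 100% of values, within a tolerance of 1e-08, which gave back reads and depths, although for ATRA replicate 2 the step of 1.011 is close to 1.

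From the normalised counts, limma 3.58.1 (R 4.3.3) with a trended variance was fitted to log2(normalised count + 1) for genes with at least 10 in at least 3 libraries, and the threshold was an adjusted p (Benjamini-Hochberg, across every tested gene) of 0.05. Fold changes set ATRA against vehicle, with the limma SE and n = 3 per group, understate the change of low genes, and all adjusted p-values are from this test unless the authors' table is named. Where a symbol had several rows, the one with the highest mean was used. The alternatives were a stricter filter (at least 50) and no filter, a pseudocount of 5, scaling by library size, upper quartile or TMM, edgeR 4.0.16 and DESeq2 1.42.0 on the recovered reads, array weights, a replicate block, and each library left out in turn.

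All 29 genes were named, and from each further list up to 3 genes called higher and up to 3 called lower, those with the largest absolute log2 fold change. 1 gene that this rule picks is not reported here. The genes and lists were chosen with earlier results of these data known. In the further lists 3 of 84 entries had no row. Promoters came from RefSeq (GRCr8), whose build differs from that of the files, so no coordinates were joined.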

Additional observations from a re-analysis of the deposited data

How the results depend on the processing

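Among the 28 genes, 6 were called with all libraries and under each of the 16 alternatives. Leaving out each library in turn gave 4 to 13 higher and 2 to 8 lower genes, and array weights gave 6 lower. The further pathway genes called lower numbered 5 to 14 over the same libraries left out. Over the whole table, library size alone gave 1764 higher and 3775 lower genes, with the median of all genes at -0.10 on the log2 scale, and single libraries left out gave 1665 to 3398 higher and 1636 to 3061 lower. The median of vehicle replicate 3 against the other vehicle libraries over the enzymes was -0.71 with library size alone.

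The fold changes that turned sign, none of them called with all libraries, were those of Tm7sf2 (-0.0214 with array weights, -0.0509 without vehicle replicate 3), Msmo1 (-0.0352 and -0.161), Sc5d (-0.0109 and -0.0816), Nsdhl (-0.0504 without vehicle replicate 3), Scap (0.00783 with array weights, 0.0212 without vehicle replicate 3, 0.0146 without ATRA replicate 3) and Npc2 (0.102 without vehicle replicate 1, 0.00371 without vehicle replicate 2). The cause was not tested. Over the libraries left out, these fold changes ranged from -0.0509 to 0.483 for Tm7sf2, -0.161 to 0.298 for Msmo1, -0.0816 to 0.323 for Sc5d, -0.0504 to 0.323 for Nsdhl, -0.021 to 0.0212 for Scap and -0.176 to 0.102 for Npc2.

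Same-numbered libraries did not deviate together (correlations of 0, -0.103 and -0.013). With 3 libraries a group this cannot show whether a number marks a shared isolation, and the labels do not say. With the replicate block, 8 genes were higher and 2 lower, Mvk was not called (adjusted p = 0.054) and Fdft1 was (adjusted p = 0.04). Of the 26 further genes picked by the naming rule, 16 were called in every setting and 0 changed sign. With 3 libraries a group, and vehicle libraries that spread widely for most enzymes, the differences of the 13 enzymes not called with all libraries could not be separated from that spread. Pmvk, whose vehicle libraries lay close together, was called in every setting.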
